A study of Rattus norvegicus with 8 samples.

Results

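Collagen chains in rat thigh muscle were examined as every probe of the array whose annotated gene symbol is Col, a number, the letter a and a number. The rule found 25 probes, 1 for each of 25 genes, among 22523 probes on the array, of which 13793 carry a gene symbol, naming 13337 genes. They comprised 9 fibrillar chains, 4 chains of the basement membrane collagen (type IV) and 12 other chains. The rule reads symbols only and uses no measured values, although it was chosen with earlier results of these data known.

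The rats came from the Wistar Han strain, and the tissue was thigh muscle (femoris) taken after 28 days of feeding. In the compound 177 group, 4 rats ate a diet holding 150 ppm of a sulfonyl isoxazoline called compound 177, and in the control group 4 rats ate standard laboratory chow. The series title names mitochondrial toxicity of foreign compounds in skeletal muscle as its subject. Each rat was measured on 1 Illumina bead array, and the labels used here state neither age nor sex. Since this is whole muscle, fewer cells of a type and less RNA per cell cannot be told apart.

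Median raw intensity per array ran from 97.5 to 124.7 in rats fed compound 177 and from 98.6 to 113.1 in controls. Between 9261 and 10572 probes per array had a detection p below 0.05 in the compound 177 group, against 9634 to 10620 in controls. Both arrays numbered 2 had the lowest maximum intensity and the fewest detected probes of their group. The labelled tissue was checked with fibre markers: Ckm, Acta1, Tnnt3, Actn3 and Myh4 were detected on all 8 arrays. Levels below are normalized log2 intensities, in which 1 unit is a doubling. Each difference is the mean of 4 treated rats less the mean of 4 controls, and levels of separate probes are not comparable with each other.

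Collagens are extracellular proteins whose chains wind around each other in a triple helix built from repeats that start with glycine. Fibrillar collagens assemble into the cable-like fibrils of tendon and of the sheaths around muscle fibres, type IV forms the network of basement membranes, and further types bind to fibrils, anchor membranes or form filaments. In skeletal muscle most collagen is made by fibroblasts of the connective tissue, and the basement membrane surrounds every fibre and capillary.

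The data gave lower values for most collagens in rats fed compound 177, with a wide spread between rats, and no collagen passed the test. Of the 25 probes, 12 were detected on all 8 arrays, 4 on 4 to 7 arrays, 2 on 1 to 3 arrays and 7 on none. The 16 probes detected on at least 4 arrays were tested, and each of them was detected on at least 2 arrays of each group. With limma and Benjamini-Hochberg adjustment over 10212 tested probes, 0 of the 16 were called at an adjusted p below 0.05, where the background over all tested probes was 0%. The 16 collagens had a difference below 0 in 13 cases, where the background was 46.6% of all tested probes. A difference of -0.5 or lower, a limit chosen after the values were seen, was found for 7 of the 16, against a background of 1.91%. This background is not matched for spread: the median SD within groups was 0.46 for the 16 collagens and 0.22 for all tested probes. Wider spread alone puts more probes past such a limit. At an unadjusted p below 0.05 there were 2 lower collagens (background 1.62%) and 0 higher ones (background 2.26%), so 2 in either direction (background 3.88%). In no collagen were the groups separated: 0 of 16 had all 4 treated values below all 4 control values, where the background was 0.705%, and 0 had them all above (background 1.7%). The median difference was -0.35 over the 16 collagens and 0.01 over all tested probes. These members share the same 8 rats, so the counts are not independent of each other.

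**Figure D1:**
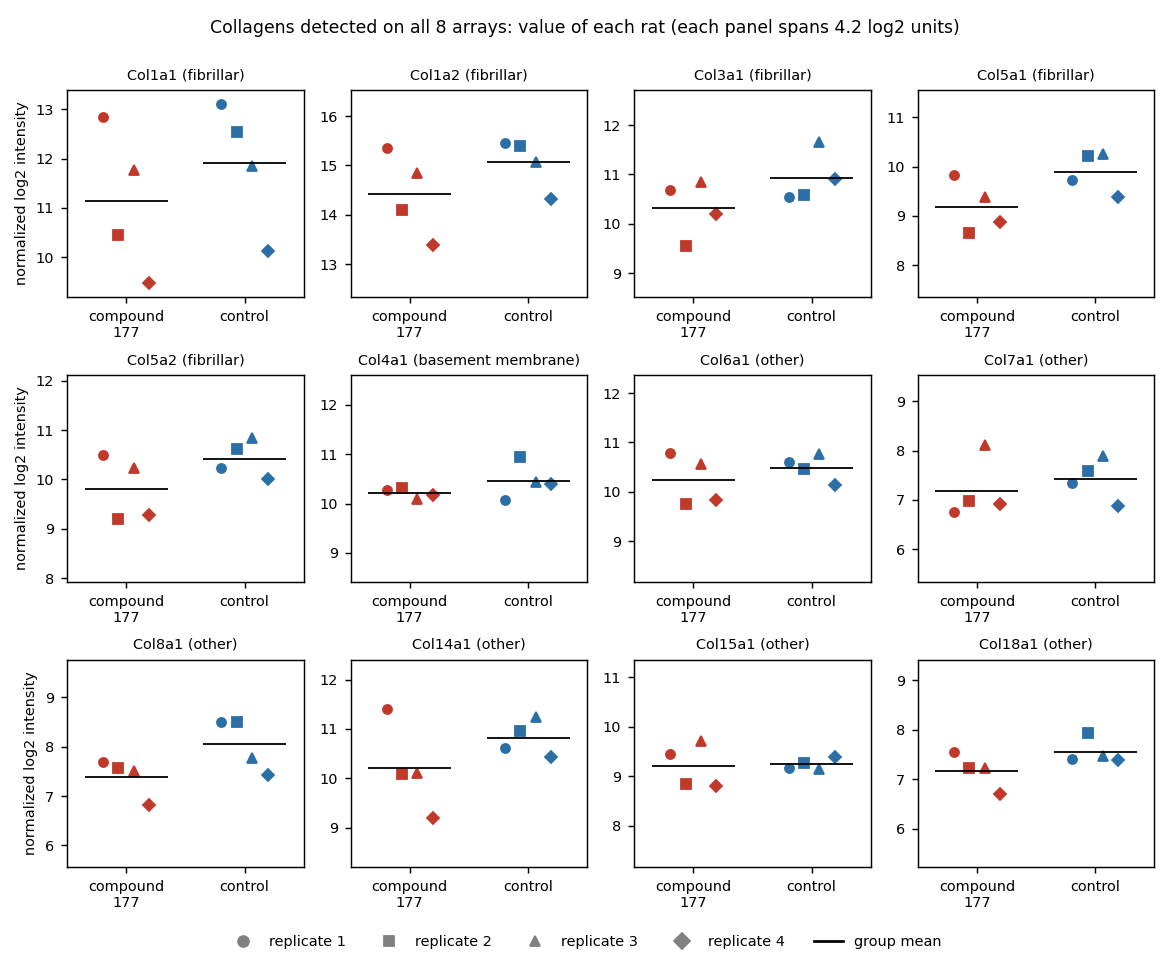
Normalized log2 intensity (vertical axis) of the 12 collagens detected on all 8 arrays, compound 177 in red on the left and control in blue on the right of each panel. Each symbol is 1 rat, its shape gives the replicate number and the black line is the group mean. Every panel spans the same number of log2 units. Groups overlap in all 12 panels, and Col1a1 has the widest scatter.

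The fibrillar chains of type I, the main collagen of tendon and of muscle sheaths, had the widest scatter of the family. Col1a1, the alpha 1 chain of type I, had 12.84, 10.45, 11.77 and 9.48 in the rats fed compound 177, against 13.10, 12.53, 11.85 and 10.12 in controls. The highest treated rat lay above 3 of the 4 controls and the lowest lay below all of them, so the groups overlapped over most of their range. Group means were 11.14 ± 1.48 in the compound 177 group and 11.90 ± 1.29 in controls (SD, n = 4 each). The difference of -0.77 (SE 0.79, 95% confidence interval -2.54 to 1.00) did not pass the limma test (adjusted p = 0.9999). The lowest and the highest rat differed 12.4-fold in Col1a1 intensity.

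Col1a2, the partner chain that joins Col1a1 in the type I molecule, had 15.36, 14.10, 14.85 and 13.40 in treated muscle, against 15.46, 15.39, 15.08 and 14.33 in control muscle. Treated rats 2 and 4 were below every control, and treated rats 1 and 3 were within the control range. The difference was -0.64 (SE 0.41, interval -1.56 to 0.28). For both type I chains the rats ranked alike in part: treated rat 4 was the lowest of all 8 arrays, control 4 was the lowest control, and control 1 was the highest of all. Of the 25 genes, 20 had a promoter window of 250 bases before to 50 bases after a start in the RefSeq table for GRCr8. A stretch before the Col1a2 start is shown because it holds 2 of the 3 searched motifs.
Col1a2 (GRCr8, chr4:33518307-33518426, + strand): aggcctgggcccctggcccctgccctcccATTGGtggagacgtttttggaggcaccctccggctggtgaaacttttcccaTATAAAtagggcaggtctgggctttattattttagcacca
Capitals mark the CCAAT box, here as ATTGG on the opposite strand, and the TATA box (TATAAA). Both strands of each window were searched for these boxes and for a GC box with the letters GGGCGG, and no motif contains another. The CCAAT box was in 5 of the 20 collagen windows and in 37.5% of 33469 windows of the same length. The TATA box was in 3 of 20 and in 14.2%, and the GC box in 11 of 20 and in 33.1%. Of the 20 windows, 7 do not begin at the annotated end of their gene, and 6 of these 7 hold the GC box, against 5 of the other 13. A match of letters describes the sequence and shows no binding.

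Type III, which forms thin fibrils with type I in stretchable tissues and within muscle, is made from a single chain. Col3a1 had 10.69, 9.56, 10.85 and 10.21 in the compound 177 group, against 10.54, 10.59, 11.67 and 10.90 in controls. Its order differed from that of Col1a1: control 1, the highest rat of all for Col1a1, was the lowest control for Col3a1, and control 3 was the highest rat. Treated rats 2 and 4 lay below every control. The difference was -0.60 (SE 0.32, interval -1.33 to 0.13, adjusted p = 0.9999 in limma).

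Type V chains nucleate fibrils and set their diameter. Col5a1 had 9.83, 8.65, 9.38 and 8.88 in treated muscle, against 9.73, 10.21, 10.25 and 9.39 in control muscle. Only treated rat 1 lay inside the control range, and the other 3 lay below it. Its difference of -0.71 (SE 0.28, interval -1.34 to -0.08) was the one with the smallest unadjusted p of the family (0.032 in limma), and the adjusted p was 0.9999. Col5a2, the second chain of the usual type V molecule, had 10.49, 9.21, 10.23 and 9.27 in the compound 177 group, against 10.23, 10.61, 10.83 and 10.01 in controls. Treated rats 2 and 4 were below all controls, and the difference was -0.62 (SE 0.31, interval -1.33 to 0.08). Col5a2 lies next to Col3a1 on chromosome 9 in GRCr8, and both had their lowest value in treated rat 2 and their highest in control 3. The bases before its start are shown for this neighbour of Col3a1, and no searched motif was in them.
Col5a2 (GRCr8, chr9:55090152-55090301, - strand): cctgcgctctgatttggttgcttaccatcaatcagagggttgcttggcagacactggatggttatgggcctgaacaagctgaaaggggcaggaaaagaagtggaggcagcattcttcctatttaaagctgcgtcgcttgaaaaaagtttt

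The third type V chain and the minor fibrillar chains were near background. Col5a3 was detected on 3 treated and 4 control arrays, with 5.66, 5.06, 5.70 and 5.76 in the compound 177 group, against 5.44, 6.64, 5.78 and 5.64 in controls. Its difference of -0.33 (SE 0.26) rested on the arrays numbered 2, and without both of them it was 0.09. Col11a2, a cartilage fibril chain, was detected on 3 treated and 2 control arrays and differed by 0.05 (SE 0.17). Col27a1, a chain of a minor cartilage collagen, was detected on 4 treated and 3 control arrays and differed by 0.02 (SE 0.13). Col2a1, the main fibrillar chain of cartilage, was detected on 0 treated and 1 control array and was not tested. Of the 8 tested fibrillar chains 6 had a difference below 0, 5 of them at -0.5 or lower, with a median of -0.61.

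**Figure D2:**
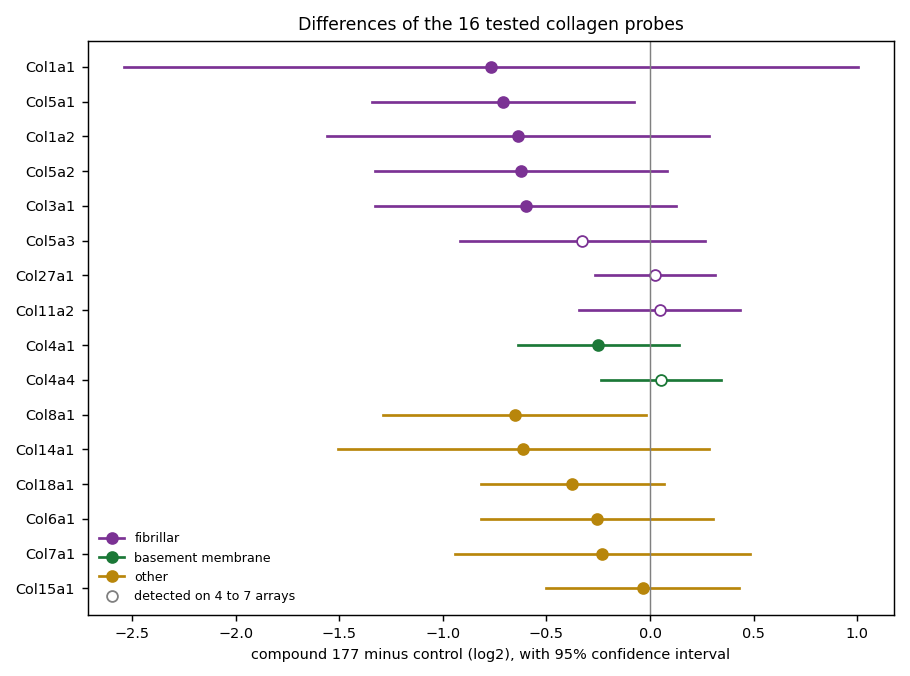
Difference of each of the 16 tested collagen probes (horizontal axis, compound 177 minus control on the log2 scale, n = 4 rats per group) with its 95% confidence interval, by class. Open circles are probes detected on 4 to 7 arrays. Of the 16 intervals, 2 lie below 0, those of Col5a1 and Col8a1, and the interval of Col1a1 is the widest.

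The basement membrane chain Col4a1 had a smaller pooled SD within groups than any other collagen detected on all 8 arrays. Col4a1, the alpha 1 chain of the type IV network found in every basement membrane, had 10.27, 10.31, 10.09 and 10.17 in rats fed compound 177, against 10.08, 10.94, 10.44 and 10.39 in controls. All treated values were close to each other and inside the control range, which was stretched by control 2 at the top and control 1 at the bottom. The difference was -0.25 (SE 0.17, interval -0.64 to 0.14, adjusted p = 0.9999 in limma). Without control 2 it was -0.09. The SD between rats was 0.10 in the compound 177 group and 0.36 in controls, where Col1a1 had 1.48 and 1.29. In controls alone, Col15a1 (0.11), Col18a1 (0.26) and Col6a1 (0.27) had a smaller SD than Col4a1. Col4a4, a chain best known from the kidney filter, was detected on 2 arrays of each group and differed by 0.05 (SE 0.13, interval -0.24 to 0.34). Its partner Col4a3 was detected on 1 treated and 0 control arrays, and Col4a5, another chain of that network, on 0 arrays.

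The type IV genes lie head to head in the genome, with Col4a1 beside Col4a2 on chromosome 16 and Col4a3 beside Col4a4 on chromosome 9. The bases that separate the annotated starts of Col4a1 and Col4a2 are shown because both genes have this stretch as their upstream sequence.
Col4a1 (GRCr8, chr16:84885521-84885596, + strand): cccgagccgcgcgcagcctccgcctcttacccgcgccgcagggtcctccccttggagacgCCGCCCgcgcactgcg
This stretch is 76 bases long, and the capitals mark a GC box, GGGCGG on the opposite strand. Col4a2 was not analysed here, since no probe carries its symbol.

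Among the other collagens, all 6 tested chains had a difference below 0, with a median of -0.32. Col8a1, a short network-forming chain of blood vessel walls, had 7.69, 7.56, 7.51 and 6.81 in the compound 177 group, against 8.50, 8.50, 7.77 and 7.42 in controls. Treated rats 1, 2 and 3 lay between control 4 and control 3, and treated rat 4 lay below all controls. The difference was -0.65 (SE 0.28, interval -1.29 to -0.02), with an unadjusted p of 0.044 and an adjusted p of 0.9999 in limma. Col8a1 was lower in the treated rat than in the control of the same number for all 4 numbers.

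Col14a1 belongs to the collagens that sit on the surface of fibrils and have interruptions in their own helix. It had 11.40, 10.09, 10.12 and 9.20 in treated muscle, against 10.62, 10.95, 11.25 and 10.44 in control muscle. Treated rat 1 was the highest of all 8 and the other treated rats were below every control. The difference of -0.61 (SE 0.40, interval -1.51 to 0.28, adjusted p = 0.9999 in limma) became -1.01 without treated rat 1 and -0.28 without treated rat 4.

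Type VI forms beaded filaments between the basement membrane and the fibrils of muscle, and inherited defects of its chains cause muscle disease. Col6a1 had 10.79, 9.75, 10.56 and 9.83 in the compound 177 group, against 10.59, 10.46, 10.76 and 10.14 in controls. Treated rat 1 was above every control, rat 3 was within their range, and rats 2 and 4 were below all of them. The difference was -0.26 (SE 0.25, interval -0.82 to 0.31). The probes for Col6a2 and Col6a4 were detected on 0 arrays. Col6a2 is known to assemble with Col6a1 in one molecule, and its probe gives no more here than a signal not above background.

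Types XV and XVIII are proteoglycans of basement membranes, and the end of Col18a1 can be released as endostatin. Col15a1 had 9.45, 8.85, 9.72 and 8.79 in the compound 177 group, against 9.16, 9.27, 9.14 and 9.38 in controls. Treated rats 1 and 3 were above every control and rats 2 and 4 below every control. The group means differed by -0.04 (SE 0.21, interval -0.50 to 0.43), while the SD was 0.45 in treated rats and 0.11 in controls. The bases before the Col15a1 start are shown beside those of Col5a2 as the tested chain detected on all arrays with the smallest difference, and no searched motif was in them.
Col15a1 (GRCr8, chr5:66297396-66297545, + strand): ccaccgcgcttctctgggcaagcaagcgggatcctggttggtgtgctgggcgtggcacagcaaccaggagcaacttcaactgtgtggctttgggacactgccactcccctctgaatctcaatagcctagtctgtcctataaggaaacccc
Col18a1 had 7.55, 7.22, 7.22 and 6.70 in treated muscle, against 7.41, 7.93, 7.47 and 7.38 in control muscle. Here 3 treated rats lay below all controls, and the difference was -0.38 (SE 0.20, interval -0.82 to 0.07). Col7a1, the chain of anchoring fibrils, had 6.75, 6.97, 8.12 and 6.92 in the compound 177 group, against 7.34, 7.58, 7.89 and 6.87 in controls. Rat 3 was the highest of its group in both, and the difference was -0.23 (SE 0.32, interval -0.94 to 0.48).

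The remaining chains were detected on 0 arrays. They were the membrane-spanning Col13a1, Col17a1 and Col23a1, and the cartilage chain Col9a2. Their normalized values lay between 4.77 and 5.27, and no difference is given for them.

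The spread between rats set the precision for each chain. The pooled SD within groups had a median of 0.46 over the 16 tested collagens and 0.22 over all tested probes. It was 1.39 for Col1a1, larger than for 99.6% of all tested probes, and 0.71 for Col1a2, larger than for 97.4%. Col14a1 had 0.69, Col3a1 0.55, Col7a1 0.54 and Col5a2 0.53, larger than for 97.1%, 94.1%, 93.7% and 93.5% of probes. Col8a1 and Col5a1 had 0.47 each, both larger than for 91.3%. Col4a1 had 0.26, larger than for 62.4% of probes, and Col15a1 had 0.33.

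**Figure D3:**
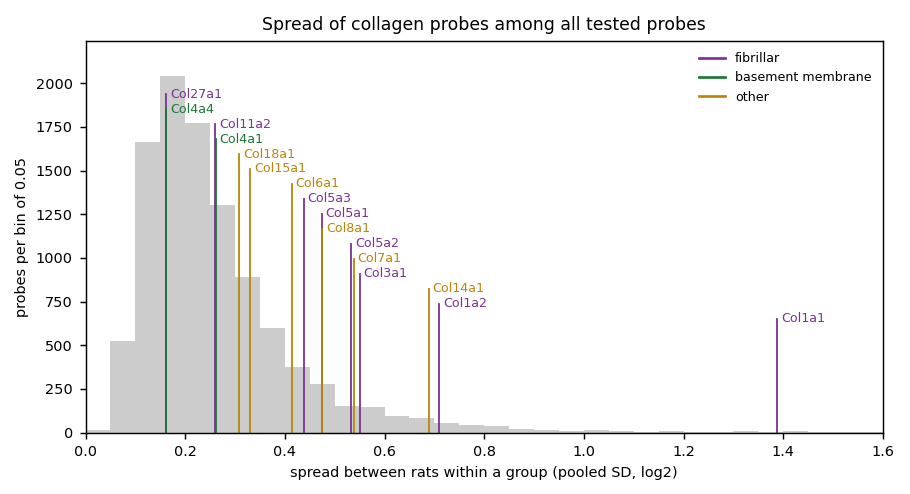
Number of tested probes (vertical axis) by pooled within-group SD between rats on the log2 scale (horizontal axis, bins of 0.05) in grey, with the SD of each tested collagen as a coloured line. The axis ends at 1.6, and 28 probes lie beyond it. Col1a1 stands at 1.39, far to the right of the median probe at 0.22.

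The fibrillar and other chains shared much of their pattern over the rats, and the 2 tested type IV chains did not. Averaged over the 8 tested fibrillar chains, the deviation from each chain's mean over all arrays was 0.37, -0.68, 0.06 and -0.66 in the rats fed compound 177, against 0.31, 0.48, 0.38 and -0.26 in controls. Treated rats 2 and 4 were low and treated rats 1 and 3 were near the controls, among which rat 4 was the lowest. The 6 other collagens gave 0.19, -0.34, 0.13 and -0.70 in treated rats, against 0.19, 0.37, 0.30 and -0.14 in controls. The 2 type IV chains gave 0.05, 0.06, -0.27 and -0.04 in treated rats, against -0.09, 0.24, 0.02 and 0.03 in controls, with no low value in treated rats 2 and 4. Of these 2, Col4a4 was near background, detected on 2 arrays of each group. Col15a1 and Col18a1, also of basement membranes but counted among the other collagens, were below every control in treated rats 2 and 4. Over the 12 chains detected on all arrays, treated rat 4 was below every control for 10 (background 18.1% of all tested probes) and treated rat 2 for 8 (background 26.9%). Treated rat 4 was the lowest of all 8 arrays for 6 of these 12 (background 10.3%) and treated rat 2 for 4 (background 19.8%). For treated rat 3 the count below every control was 3 (background 13.6%) and for treated rat 1 it was 1 (background 18.4%).

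The count of collagens at an unadjusted p below 0.05 moved with single rats. The background, given in brackets, is the number of lower probes at this limit among all 10212 tested, and it moved as well. The collagen count was 2 with all rats (165), 6 without treated rat 1 (291) and 4 without treated rat 3 (249). It was 0 without treated rat 2 (97), 0 without treated rat 4 (178) and 0 without control 2 (205). Without control 3 the count was 1 (121), and without both arrays numbered 2 it was 0 (154). The median difference of the 16 was -0.23 without treated rat 4 and -0.19 without both arrays numbered 2. Of the 16, 13 had a difference below 0 in each of these last 2 settings.

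Markers of connective tissue cells moved with these arrays. Tendon markers were 4 of 7 listed genes, all tested and all with a difference below 0 (median -0.79): tenomodulin (Tnmd), fibromodulin (Fmod), thrombospondin 4 (Thbs4) and keratocan (Kera). Their summed normalized intensity ran from 1660 to 14641 in the compound 177 group and from 3113 to 12248 in controls. Their mean deviation was 1.58, -1.52, 0.42 and -1.96 in treated rats, against 1.14, 0.86, 0.47 and -0.996 in controls. The highest 3 rats (treated 1 and controls 1 and 2) and the lowest 3 (treated 2 and 4 and control 4) were also those of Col1a1. Tnmd, a membrane protein of tendon cells, had 11.67, 8.26, 10.26 and 7.87 in the compound 177 group, against 11.03, 10.77, 10.25 and 9.0 in controls. Fibroblast markers gave a difference below 0 for 9 of 9 genes (median -0.40), with sums of 14765 to 35328 in treated muscle and 25276 to 33342 in control muscle. Decorin (Dcn), a small proteoglycan that binds collagen fibrils, had 13.70, 12.50, 13.52 and 12.41 in treated rats, against 13.78, 13.63, 13.67 and 13.14 in controls. The part of tendon or fibroblast content in the collagen values was not tested.

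Mean deviations of some other marker lists were also low in treated rats 2 and 4. Macrophage markers gave a difference below 0 for 5 of 5 tested genes (median -0.58), with a mean deviation of 0.37, -1.19, 0.31 and -0.55 in treated rats, against 0.45, 0.46, 0.38 and -0.23 in controls. Nerve and Schwann cell markers had a median difference of -0.48 (4 of 4 below 0) and a mean deviation of 0.30, -0.63, 0.01 and -0.56 in treated rats, against 0.20, 0.11, 0.11 and 0.47 in controls. Adipocyte markers had a median of -0.38 (2 of 3 below 0) and a deviation of 0.02, -0.79, 0.43 and -0.46 in treated rats, against 1.01, 0.27, 0.37 and -0.86 in controls. Not every member followed the list mean. In the nerve list S100b and Pmp22 were low in treated rats 2 and 4. Mbp (5.76, 5.46, 5.44 and 5.65) and Ngfr (5.51, 5.61, 5.64 and 5.48) did not set these rats apart from other treated rats. In the adipocyte list control 4 was the lowest array, and Cidec in treated rats 2 and 4 lay within the control range. The low list means in treated rats 2 and 4 were thus not limited to connective tissue lists. The part of these cell types in the collagen values was not tested. Endothelial markers gave a median of 0.08, with 1 of 5 below 0. Slow-fibre markers had a median of -1.5 with 5 of 5 genes below 0, and their deviation was 1.16, -1.13, -1.67 and -0.92 in treated rats, against -1.08, 1.16, 0.98 and 1.5 in controls. Control 1 was thus low for slow-fibre genes and high for type I collagen, and control 4 the reverse. Markers of fast or general muscle fibres had a median of -0.04 and smooth muscle and pericyte markers -0.09 (3 of 4 below 0). The latter list includes Des (-0.16), which is not limited to these cells, and Rgs5, detected on 3 arrays of each group. Satellite cell markers had a median of 0.00 (1 of 3 below 0), and chondrocyte markers 0.17 (0 of 2). Matn3 and Hapln1 of the chondrocyte list were not detected on any array.

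**Figure D4:**
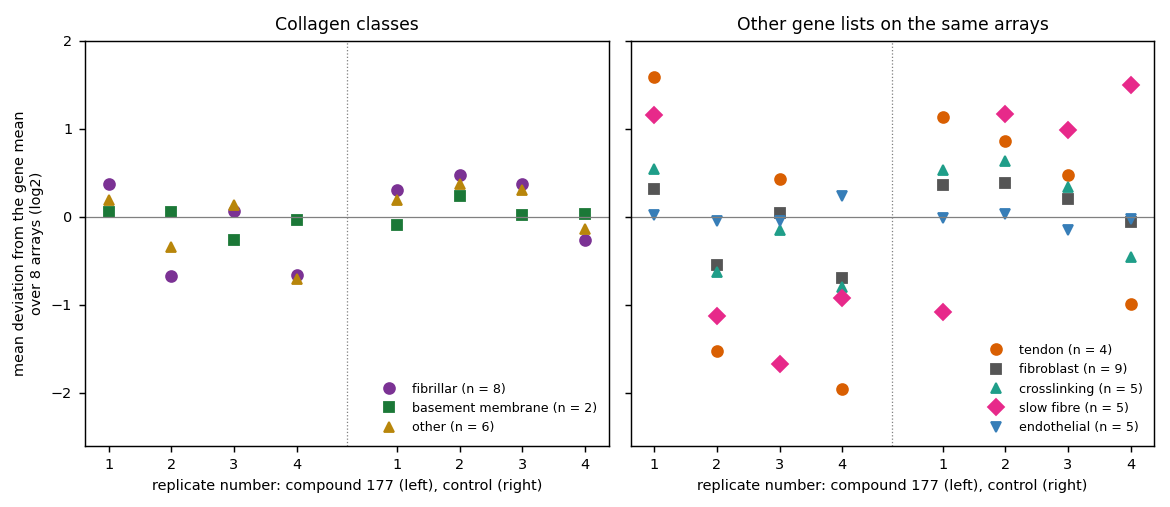
Mean deviation of each gene list from its genes' means over 8 arrays (vertical axis, log2), by replicate number (horizontal axis), with compound 177 left and control right of the dotted line. The left panel has the collagen classes and the right panel other lists, with the number of tested genes in brackets. Fibrillar and other collagens are low in treated rats 2 and 4, as are the tendon, fibroblast and crosslinking lists drawn here and the macrophage, nerve and adipocyte lists given in the text, while slow-fibre genes are also low in treated rat 3 and control 1.

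Rats of the same replicate number were also compared, although no label pairs them. The pairing was assumed from a correlation check on these same values, described under the processing. For number 3 the correlation was 0.12, and neither array correlated best with its own number. The median difference of the 16 collagens was 0.14 for number 1, -0.78 for number 2, -0.22 for number 3 and -0.55 for number 4. It was below 0 in 5, 14, 13 and 11 of the 16 chains, where the backgrounds were 50.6%, 45.6%, 47.2% and 48.1%. Col1a1 was lower in the treated rat for every number, by -0.26, -2.08, -0.08 and -0.64. Its SE was 0.32 with the number as a block and 0.79 without. With this block 6 collagens had an unadjusted p below 0.05, all lower (background 2.88% lower and 6.43% in either direction): Col8a1, Col3a1, Col1a2, Col5a1, Col5a2 and Col1a1. None was called, at an adjusted p of 0.745 for each of these 6 in limma with the block. As the block was chosen from these same values, its smaller SE and p-values are not separate evidence of a difference.

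In the authors' normalized table, the 4 arrays of replicates 1 and 2 (the first set) had identical sorted values. The 4 arrays of replicates 3 and 4 (the second set) also had identical sorted values. Whether the sorted values differ between the sets was not tested. The differences within each set are of the neqc levels used above, not of the authors' values. Within the first set 14 of 16 collagens had a difference below 0 (background 47.3%), with a median of -0.37, and within the second 12 of 16 (background 47%), with a median of -0.32. Fibrillar chains had medians of -0.63 and -0.47 in these sets. Col14a1 differed by -0.04 in the first set and by -1.18 in the second, and Col1a1 by -1.17 and -0.36.

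Genes that fold, cut, crosslink, bind and degrade collagen were examined as a list of 69 genes, of which 59 were on the array and 45 were tested. None was called by limma (background 0%), and 35 had a difference below 0 (background 46.6%), with a median of -0.17. In all, 7 of 45 were at -0.5 or lower (background 1.91%, not matched for spread), the limit chosen after the values were seen. At an unadjusted p below 0.05 in limma, 2 were lower (background 1.62%). These genes share the same rats, so the counts are not independent of each other.

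Crosslinking enzymes had the lowest median among the 6 groups of this list, -0.58, with 5 of 5 tested genes below 0. Lysyl oxidase (Lox), which oxidizes lysines so that fibrils can crosslink, had 10.87, 9.11, 10.05 and 8.80 in the compound 177 group, against 11.43, 11.67, 10.87 and 8.69 in controls. Control 4 was the lowest rat of all and controls 1 and 2 were the highest, so the groups overlapped, and the difference was -0.96 (SE 0.67). Its relative Loxl1 has 2 probes, with differences of -0.58 (SE 0.32) and -0.55 (SE 0.38).

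Of the 17 tested folding and modifying enzymes 15 were below 0, with a median of -0.10. P3h2, a prolyl 3-hydroxylase that acts on type IV collagen, had 6.92, 5.87, 6.21 and 5.52 in treated muscle, against 6.50, 7.19, 6.49 and 7.10 in control muscle. Treated rats 2, 3 and 4 were below all controls, and the difference was -0.69 (SE 0.30, unadjusted p 0.043 in limma). Colgalt1, which attaches galactose to hydroxylysine, differed by -0.21 (SE 0.17). Among enzymes of procollagen cleavage, 2 of 3 were below 0, with Adamts2, which removes the amino-terminal propeptide of fibrillar procollagens, at -0.48 (SE 0.26) and Pcolce, which enhances removal of the carboxy-terminal propeptide by other enzymes, at -0.45 (SE 0.38).

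Receptors gave a median of -0.14 with 3 of 5 below 0. Itgb1, the beta 1 integrin shared by all collagen-binding integrins, had 10.40, 10.04, 10.42 and 10.19 in treated rats, against 10.39, 10.67, 10.59 and 10.53 in controls, a difference of -0.28 (SE 0.12, unadjusted p 0.048 in limma). Itga11, the fibroblast integrin for type I collagen, differed by -0.74 (SE 0.42) and was low in treated rats 2 (6.07) and 4 (6.72), against 7.73 to 8.14 in controls. The degrading proteases and their inhibitors had a mean deviation of 0.30, -0.69, 0.09 and -0.40 in treated rats, against 0.28, 0.34, 0.25 and -0.17 in controls. Of these genes 6 of 7 were below 0 (median -0.41), with the membrane-bound collagenase Mmp14 at -0.56 (SE 0.32) and the inhibitor Timp2 at -0.56 (SE 0.34). Regulators were divided evenly, with 4 of 8 below 0 and a median of -0.03. Ccn2, a matrix growth factor induced by transforming growth factor beta, differed by -0.37 (SE 0.32) and Tgfb2 by 0.15 (SE 0.18).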

How the data were processed

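Thigh muscle RNA of 8 rats was hybridized as biotin-labelled cRNA to Illumina rat arrays, per the labels' protocols. The authors' deposited non-normalized table holds linear intensity values, and beside them, per the file headers, a detection p-value that moves in steps of 1 in 825. No source used here names the scanner software or a background step. The authors' deposited normalized intensity table, identical to the series' value table, was used as an alternative.

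Intensities were background-corrected and quantile-normalized with neqc (offset 16) of limma 3.58.1 in R 4.3.3 and taken to log2. Probes with a detection p below 0.05 on at least 4 of 8 arrays were tested, 10212 in all, with lmFit and eBayes and Benjamini-Hochberg adjustment. The smallest adjusted p was 0.9999. Symbols came from the platform annotation. Every collagen probe is accounted for. From the list of processing genes, the 2 with the smallest p in each group are named. A gene of several probes was counted by the brightest.

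The labels do not say whether replicate numbers pair the rats. Deviations from the group means correlated at 0.24, 0.47, 0.12 and 0.43 between arrays of number 1 to 4. In all, 6 of 8 arrays correlated best with their own number, and neither array of number 3 did. The numbers were treated as pairs in the blocked fit and in the differences within each number, and not in the other tests. Whether the correlations come from the rats or from array quality was not tested. On simulated data of 10212 probes, the same test recovered 14.9% of planted differences of 0.5 log2 units, 79.1% of those of 1 unit and 98.5% of those of 2 units. The planted probes were drawn at random from all tested probes, with independent noise at each probe's own SD. That SD had a median of 0.22 over all tested probes and 0.46 over the 16 collagens. These shares therefore do not hold for collagens, and they depend on how many differences were planted. The number of arrays limits the precision: the median SE was 0.16. Members and lists were chosen with earlier results of these data known. Replicates are separate rats by the design text.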

Additional observations from a re-analysis of the deposited data

Results flagged for a closer look

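In 3 of 62 groups of 4 rats examined for a single rat far from the others, the gap passed Dixon's 95% limit, and chance alone flags about 1 in 20. Col5a3 had 5.06 in compound 177 replicate 2, against 5.66 to 5.76 in the other treated rats, on an array where it was not detected. Col7a1 had 8.12 in compound 177 replicate 3, against 6.75 to 6.97 in the other treated rats. Col18a1 had 7.93 in control replicate 2, against 7.38 to 7.47 in the other controls.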

How the results depend on the processing

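Every alternative run left 0 collagens, 0 processing genes and 0 of all probes called, and the class medians of the collagens stayed below 0. With 1 rat left out, the collagen median ran from -0.47 to -0.23, and in other settings from -0.61 (detected on all 8 arrays) to -0.08 (no filter, which adds probes at background). At an unadjusted p below 0.05 there were 396 probes as reported, 657 with the replicate block, 126 with median scaling and 954 without a filter. For collagens this count was 6 with the replicate block and 0 to 6 with 1 rat left out. Over all probes it ran from 260 to 559 with 1 rat left out. Signs of single genes turned in these settings. Within set 1, Col11a2 was -0.10 and Colgalt1 0.044. Within set 2, Col4a4 was -0.074, Col5a3 0.023 and Col7a1 0.14. With array weights, Col27a1 was -0.017 and Col15a1 0.064. Without both arrays numbered 2, Col4a4 was -0.018, Col27a1 -0.041, Col5a3 0.088 and Col15a1 0.093. With 1 rat left out, Col11a2 ran from -0.048 to 0.19, Col15a1 from -0.21 to 0.10, Col27a1 from -0.072 to 0.097 and Tgfb2 from -0.012 to 0.24. The causes were not tested. Each gene had 1 collagen probe, so choosing 1 probe per gene changes nothing. Without background correction the fibrillar median was -0.57.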
